A study of Mus musculus with 6 samples.

Results

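The axon guidance ligands and receptors are the semaphorins of classes 3 to 7 with their plexin and neuropilin receptors, the ephrins with the Eph receptors, the Slits with the Robo receptors, and the netrins with DCC and the Unc5 receptors. They were chosen by gene symbol from a table of 13724 gene entries, which gave 60 entries. Unc50, a protein of intracellular membranes, was matched by its symbol alone and is no guidance receptor, which left 59 guidance genes, 31 ligands and 28 receptors. The libraries came from wild type C57Bl6/J mice that were all warm-exposed, in warm challenges numbered 1 to 3, and no group at another temperature is labelled. Per the labels, the anterior hypothalamus was dissected from 0.5 mm brain sections and the tissue is called preoptic neurons. PhosphoTRAP precipitates ribosomes with an antibody against ribosomal protein S6 phosphorylated at sites 244 and 247, which is phosphorylated more in active neurons. From each challenge came an Immunoppt library, the RNA bound to phosphorylated S6, and an Input library of total RNA, 3 libraries a group. Nothing in the labels says how many animals made up a library, so p-values measure the spread between these libraries.

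Guidance cues steer growing axons, and in the adult brain many of them go on to act on synapses, glia and vessels. Secreted semaphorins bind neuropilins and signal through plexins, while membrane semaphorins mostly bind plexins directly. Ephrin-A proteins are held by a lipid anchor and ephrin-B proteins span the membrane, and both bind Eph receptor tyrosine kinases on the neighbouring cell. Slits repel axons through Robo receptors, and netrin-1 attracts through DCC and repels through Unc5 receptors.

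Summed RPKM lay between 374708 and 496125 per library, and the absolute depth is unknown. On the leading principal component (43.2% of the variance) Immunoppt libraries scored 10.3 to 41.3 and Input libraries -31.5 to -25.2. The next component (26.0%) set Immunoppt 1 (49.0) apart from the other libraries (-19.9 to 10.01), and the folds that turned most without Immunoppt 1 are given beside the class medians or the gene.

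Among the 59 guidance genes, Slit2 was the 1 gene that was higher in Immunoppt, and none was lower, at an adjusted p under 0.05 (limma, Benjamini-Hochberg over all 12328 genes tested). The test covered the 54 guidance genes with at least 1 RPKM (reads per kilobase of gene, scaled to library size) in 3 or more of the 6 libraries, 29 ligands and 25 receptors. Of all genes tested, 0.892% were higher and 3.29% lower, so 1 higher call among 54 lies near the background. With the challenge as a block the counts for guidance genes were again 1 and 0, beside 1.33% and 3.99% of all genes. An unadjusted p under 0.05 was reached by 9 guidance genes with a positive fold (8 ligands and Epha5) and 0 with a negative one, against 5.04% and 19.3% of all genes tested. Among these ligands, Sema6c and Efnb1 reached 1 RPKM in Immunoppt alone, and so entered the test through the fraction in which they were high. With no filter the counts were again 9 and 0 over the 59 guidance genes, beside 645 and 2588 of all 13724 listed genes. Summed over the 59 genes, RPKM was 359, 306 and 375 in Immunoppt 1, 2 and 3, against 334, 261 and 333 in Input 1, 2 and 3. The fractions overlap, and Immunoppt had the larger sum in each of the 3 challenges. As a share of the summed RPKM of each library, this order held in challenges 1 and 2 but not in challenge 3. The shares were 0.0958%, 0.0618% and 0.0856% in Immunoppt 1, 2 and 3, against 0.0702%, 0.0547% and 0.0867% in Input 1, 2 and 3.

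Slit2, a secreted repellent ligand of the Robo receptors, stood at 11.1, 7.91 and 9.46 RPKM in Immunoppt 1, 2 and 3, against 4.0, 2.81 and 3.01 RPKM in Input 1, 2 and 3. The lowest Immunoppt library lay well above the highest Input library. The means were 9.49 ± 1.6 RPKM in Immunoppt and 3.27 ± 0.639 RPKM in Input (SD, n = 3 each), a ratio of 2.90. On the scale of log2(RPKM + 1), which understates folds of genes with low RPKM, the fold was 1.30 (SE 0.23, 95% interval 0.79 to 1.80, adjusted p = 0.0249 by limma). The call held after scaling each library to a common median (adjusted p = 0.0172). It held without Immunoppt 1 (adjusted p = 0.0187) and ended without any other single library (adjusted p = 0.0555 to 0.125), with folds of 1.19 to 1.41 over the 6 omissions. Those 5 omissions left 4 to 29 genes called higher in the whole table, against 110 over the 6 libraries.

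The sequence before the start of Slit2 is shown with that of Slit3, since the Slit genes all had positive folds in each of the 3 warm challenges. Slit1 is not among the windows used here. Both are the 250 bases before the RefSeq start, 5′ to 3′ on the plus strand of build GRCm38.p6, with TATAAA in capitals.
Slit2: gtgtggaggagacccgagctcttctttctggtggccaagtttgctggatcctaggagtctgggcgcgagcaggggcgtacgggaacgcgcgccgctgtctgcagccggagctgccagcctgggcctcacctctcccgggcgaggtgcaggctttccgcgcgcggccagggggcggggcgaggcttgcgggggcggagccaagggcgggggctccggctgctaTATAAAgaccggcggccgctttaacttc
Slit3: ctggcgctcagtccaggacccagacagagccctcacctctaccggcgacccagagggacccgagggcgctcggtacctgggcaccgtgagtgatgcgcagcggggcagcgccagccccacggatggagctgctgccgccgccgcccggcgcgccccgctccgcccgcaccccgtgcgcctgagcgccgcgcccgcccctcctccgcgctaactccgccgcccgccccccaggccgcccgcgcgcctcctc
The Slit2 window lies at chr5:47982905-47983154 and the Slit3 window at chr11:35121206-35121455. TATAAA begins 28 bases before the Slit2 start and is not in the Slit3 window. It was searched after the sequences had been read, and 12.4% of all 32851 windows hold it on either strand. Neither window holds the cyclic AMP response element TGACGTCA (1.55% of all windows), its half-site TGACG (17.8%), the AP-1 motif TGANTCA (6.75%), the EGR motif GCGTGGGCG (0.536%) or the MEF2 motif (3.20%), searched on both strands. TGACG is part of TGACGTCA, so the half-site search counts the full motif too. The table of windows holds 51 of the 60 symbols in 65 windows. TGACG stands in 6 of these windows (9.23%), those of Efnb1, Efnb2, Epha4, Ephb3, Sema3d and Unc5c, and TGACGTCA in 0. The EGR motif stands in 2 (3.08%, Efna3 and Plxna2), a larger share than over all windows. The AP-1 motif stands in 2 (3.08%, Sema4d and Sema6b), the MEF2 motif in 1 (1.54%, Sema4d) and TATAAA in 2 (3.08%, Efnb2 and Slit2), each a smaller share than over all windows. These differences were not tested.

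The other Slit ligands did not pass the test. Slit1 stood at 11.4, 6.21 and 4.43 RPKM in Immunoppt 1, 2 and 3, against 4.24, 3.29 and 3.27 RPKM in Input 1, 2 and 3. Every Immunoppt library lay above every Input library, but by a narrow margin, and Immunoppt 1 stood far above the other two. Its log2 fold was 0.78 (SE 0.31, adjusted p = 0.160). Slit3 stood at 1.76, 1.44 and 6.60 RPKM in Immunoppt 1, 2 and 3, against 1.10, 1.19 and 2.83 RPKM in Input 1, 2 and 3, with a log2 fold of 0.51 (SE 0.43, adjusted p = 0.505). For Slit3 the third warm challenge was high in both fractions, and the groups overlap. With the challenge as a block in limma, the Slit3 fold had an SE of 0.23 and an adjusted p of 0.199.

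The Robo receptors, which bind the Slits, showed the same order within each warm challenge with smaller folds. Robo1 stood at 7.66, 4.85 and 14.1 RPKM in Immunoppt 1, 2 and 3, against 4.20, 4.46 and 8.96 RPKM in Input 1, 2 and 3. Robo2 stood at 1.82, 2.35 and 3.71 RPKM in Immunoppt 1, 2 and 3, against 1.5, 1.97 and 3.19 RPKM in Input 1, 2 and 3. Both receptors were highest in the third warm challenge in either fraction, and their groups overlap. The log2 folds were 0.48 for Robo1 (95% interval -0.37 to 1.33, adjusted p = 0.476) and 0.17 for Robo2 (95% interval -0.46 to 0.80, adjusted p = 0.753). Under the challenge block the limma adjusted p was 0.186 for Robo1 (SE 0.21) and 0.580 for Robo2 (SE 0.19). The difference between the Slit and Robo folds was not tested.

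**Figure D1:**
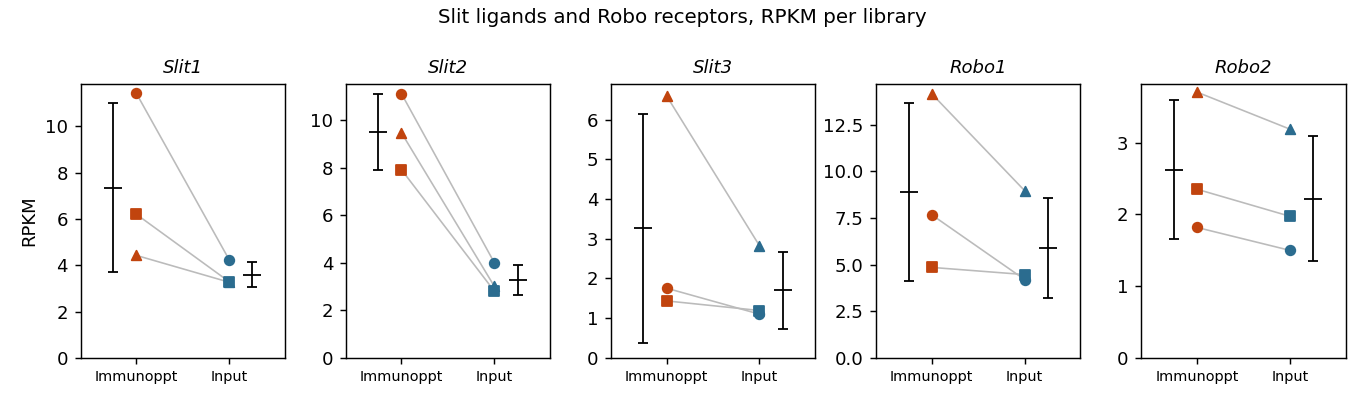
RPKM of the 3 Slit ligands and 2 Robo receptors in each library, with circles, squares and triangles for warm challenges 1, 2 and 3, grey lines joining the libraries of a challenge, and black bars for the mean and SD (n = 3). The Slit2 libraries lie at 7.91 to 11.1 RPKM in Immunoppt and 2.81 to 4.0 RPKM in Input, while the Robo groups overlap.

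Genes whose fractions were fully apart were found among the ligands. Over all 31 ligands, every Immunoppt library lay above every Input library for 8, below for 2, and the fractions overlapped for 21. Over all 28 receptors they overlapped for 28. Of all 13724 listed genes, 6.46% had every Immunoppt library above and 23.5% every Immunoppt library below. Within each of the 3 challenges, Immunoppt had the larger value for 13 ligands and 8 receptors and the smaller value for 6 ligands and 5 receptors, against 13.4% and 37.5% of all listed genes. The 8 ligands above were Slit1, Slit2, Sema3f, Sema4d, Sema5a, Sema6c, Efna5 and Efnb1, and the 2 below were Sema4f and Ntn4. After scaling each library to a common median, 9 ligands and 3 receptors lay above (11.5% of all listed genes) and none of either below (14.8%). These counts moved when 1 library was left out. Without Immunoppt 1, 11 ligands and 2 receptors lay above and 4 ligands and 8 receptors below, against 13.9% and 34.9% of all listed genes. Without Input 3, 13 ligands and 6 receptors lay above and 4 ligands and 0 receptors below, against 10.1% and 30.7%. The difference between ligands and receptors was not tested.

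The median log2 fold was 0.31 over the 29 ligands tested and 0.10 over the 25 receptors tested, beside -0.18 over all genes tested. With no filter on low values it was 0.12 over all 31 ligands, 0.02 over all 28 receptors and -0.17 over all listed genes. Scaling each library to a common median moved the median of all genes by more than 0.1, to -0.000729, and the medians became 0.47 for ligands and 0.23 for receptors. With a filter of 5 RPKM the order of the classes turned, to 0.22 for ligands and 0.24 for receptors. Leaving out 1 library put the ligand median between 0.10 (Immunoppt 3) and 0.41 (Input 3). The receptor median lay between -0.08 (Immunoppt 1) and 0.20 (Immunoppt 2), and was -0.03 without Input 2. Without Immunoppt 1 the log2 folds of Slit1 and Plxnc1 were 0.45 and -0.77, and those of Sema4a and Plxnb2 turned to -0.18 and -0.08. Dcc stood at -0.23 without it, Plxna3 at -0.14, Plxnb3 at -0.04, Epha7 at 0.03 and Ntn1 at 0.14, each with its sign turned. Sema6c and Efnb1 reached 1 RPKM in the 3 Immunoppt libraries alone, so they entered the test through the fraction in which they were high.

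**Figure D2:**
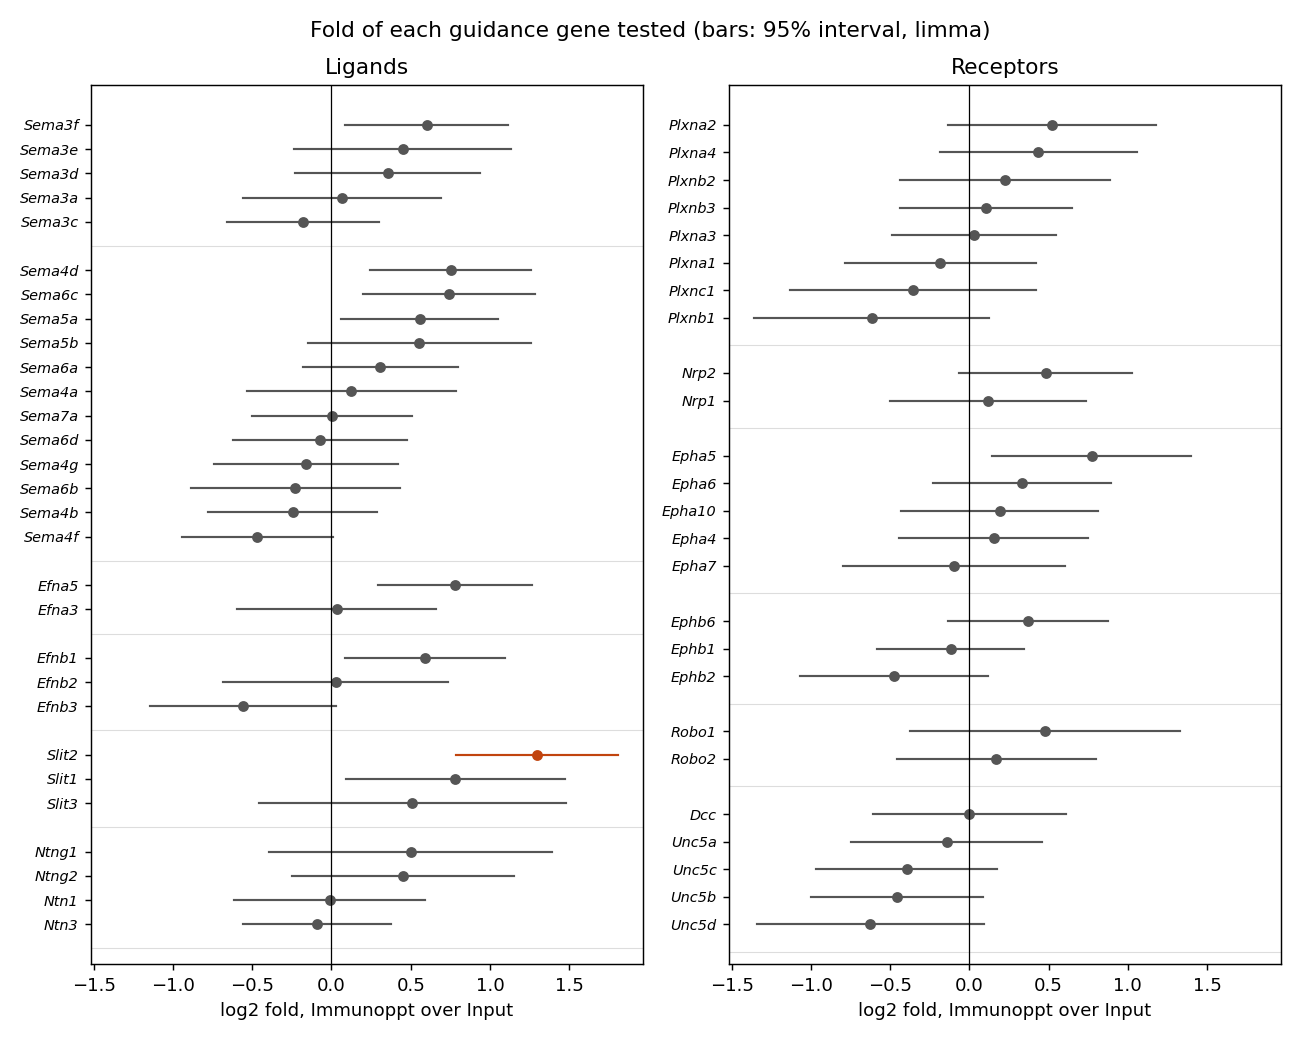
Log2 folds of Immunoppt over Input on the log2(RPKM + 1) scale for the 29 ligands and 25 receptors tested, grouped by family, with bars for the 95% interval from limma. Slit2, in orange, is the 1 gene past an adjusted p of 0.05, with an interval of 0.79 to 1.80.

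Secreted class 3 semaphorins, which bind neuropilins, were among the low to middling ligands, and none of 5 passed the test. Sema3f, a ligand that binds neuropilin-2, stood at 1.36, 1.65 and 2.11 RPKM in Immunoppt 1, 2 and 3, against 0.664, 0.534 and 1.19 RPKM in Input 1, 2 and 3. Its fractions were apart by a small gap, and its log2 fold of 0.60 had an adjusted p of 0.151. Sema3e, a ligand of plexin-D1, averaged 3.50 ± 1.55 RPKM in Immunoppt and 2.26 ± 0.943 RPKM in Input (SD, n = 3 each), with a log2 fold of 0.45 (adjusted p = 0.4) and the third warm challenge highest in both fractions. Under the challenge block Sema3e had a limma adjusted p of 0.193. Sema3d had a log2 fold of 0.35, and Sema3a, a repellent of many axon types, 0.06. Sema3c had -0.18, a sign that turned after quantile normalization (0.05).

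Membrane semaphorins of classes 4 to 7 held both directions, and none of 12 passed. Sema4d, a ligand of plexin-B1 known from oligodendrocytes, stood at 12.1, 11.2 and 12.1 RPKM in Immunoppt 1, 2 and 3, against 8.53, 5.34 and 6.21 RPKM in Input 1, 2 and 3. The Immunoppt libraries were close together and all above the Input libraries, and the log2 fold was 0.75 (SE 0.23, adjusted p = 0.0875). Sema6c stood at 1.36, 1.11 and 2.50 RPKM in Immunoppt 1, 2 and 3, against 0.536, 0.487 and 0.632 RPKM in Input 1, 2 and 3. This was the highest ratio of means of any guidance gene, 3.00, and its log2 fold of 0.74, held down by the low level, had an adjusted p of 0.105.

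Sema5a, a transmembrane semaphorin with thrombospondin repeats, stood at 9.20, 7.33 and 10.2 RPKM in Immunoppt 1, 2 and 3, against 6.25, 4.87 and 6.02 RPKM in Input 1, 2 and 3. Its fractions did not overlap, and its log2 fold was 0.56 (adjusted p = 0.161). Sema5b, its closest relative, had a log2 fold of 0.55 (adjusted p = 0.314) with overlapping fractions. Sema4f, found at glutamatergic synapses, lay the other way, at 11.5, 8.99 and 8.93 RPKM in Immunoppt 1, 2 and 3, against 14.2, 12.3 and 15.2 RPKM in Input 1, 2 and 3. Every Immunoppt library of Sema4f lay below every Input library, with a log2 fold of -0.47 (adjusted p = 0.212), which was -0.28 after median scaling. The most abundant semaphorin, Sema6d, a ligand of plexin-A1, averaged 18.9 ± 3.46 RPKM in Immunoppt and 20.0 ± 4.73 RPKM in Input (SD, n = 3 each), with a log2 fold of -0.07 that was 0.13 after median scaling. Sema6a, a ligand of plexins A2 and A4, averaged 13.3 ± 1.83 RPKM in Immunoppt and 10.6 ± 1.58 RPKM in Input, a log2 fold of 0.31 (adjusted p = 0.424). The remaining 5, Sema4a, Sema4b, Sema4g, Sema6b and Sema7a, had log2 folds between -0.24 (Sema4b) and 0.12 (Sema4a).

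Plexins, the signalling receptors of semaphorins, showed no call among 8 tested. Within each of the 3 warm challenges Immunoppt had the larger value for 3 and the smaller value for 1, against 13.4% and 37.5% of all listed genes. For the other 4 the challenges went different ways. Plxnc1, the receptor of Sema7a, stood at 15.3, 6.29 and 5.49 RPKM in Immunoppt 1, 2 and 3, against 12.9, 8.91 and 10.7 RPKM in Input 1, 2 and 3. Immunoppt 1 was the highest of the 6 libraries for this gene, while Immunoppt 2 and 3 were the lowest. Its log2 fold was -0.35 (95% interval -1.13 to 0.42, adjusted p = 0.572). Plxnb1, the receptor of Sema4d, stood at 2.20, 0.475 and 0.785 RPKM in Immunoppt 1, 2 and 3, against 2.77, 1.26 and 2.57 RPKM in Input 1, 2 and 3, a log2 fold of -0.62 (adjusted p = 0.285). Immunoppt had the smaller value in each challenge, although the fractions overlap. Plxna2 and Plxna4, which partner neuropilins or bind class 6 semaphorins directly, had log2 folds of 0.52 (adjusted p = 0.310) and 0.44 (adjusted p = 0.366). The other 4 tested, Plxna1, Plxna3, Plxnb2 and Plxnb3, had log2 folds of -0.18 to 0.22, and Plxnd1, at 0.348 ± 0.0608 RPKM in Immunoppt and 0.346 ± 0.101 RPKM in Input (SD, n = 3 each), was below the filter.

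Neuropilins carry the binding site for secreted semaphorins. Nrp2, the most abundant guidance receptor, stood at 17.5, 19.0 and 25.6 RPKM in Immunoppt 1, 2 and 3, against 14.5, 11.5 and 17.8 RPKM in Input 1, 2 and 3. Immunoppt had the larger value in each challenge, but Immunoppt 1 lay just under Input 3, and the log2 fold of 0.48 had an adjusted p of 0.259. Nrp1, which also binds vascular endothelial growth factor, stood at 6.92, 3.27 and 3.39 RPKM in Immunoppt 1, 2 and 3, against 4.25, 3.55 and 3.84 RPKM in Input 1, 2 and 3. Its log2 fold of 0.12 (adjusted p = 0.833) was -0.17 without Immunoppt 1, the library with the largest value.

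The ephrins gave ligands at the top of the range of levels, and none of 5 tested passed. Efna5, ephrin-A5, stood at 25.4, 24.6 and 25.2 RPKM in Immunoppt 1, 2 and 3, against 17.8, 12 and 13.4 RPKM in Input 1, 2 and 3. The 3 Immunoppt libraries were almost equal and all above the Input libraries, with a log2 fold of 0.78 (SE 0.22, adjusted p = 0.0733). Efnb3, ephrin-B3, the guidance gene with the highest mean level at 29.8 RPKM over the 6 libraries, stood at 22.3, 25.9 and 22.0 RPKM in Immunoppt 1, 2 and 3, against 48.9, 33.7 and 25.7 RPKM in Input 1, 2 and 3. The Input libraries spread widely, Immunoppt 2 lay just above Input 3, and the log2 fold was -0.56 (SE 0.26, adjusted p = 0.223). Efnb1 stood at 1.42, 1.07 and 2.06 RPKM in Immunoppt 1, 2 and 3, against 0.732, 0.483 and 0.753 RPKM in Input 1, 2 and 3. Its log2 fold was 0.59 (adjusted p = 0.149), with the fractions apart at a low level. Efnb2, known from arteries as well as neurons, had a log2 fold of 0.03, as had Efna3, and Efna2 was below the filter at 0.664 ± 0.417 RPKM in Immunoppt and 0.896 ± 0.213 RPKM in Input (SD, n = 3 each).

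Among the Eph receptors, none of 8 tested passed. Epha5, a receptor of ephrin-A5, stood at 7.48, 11.4 and 14.0 RPKM in Immunoppt 1, 2 and 3, against 4.90, 5.07 and 7.87 RPKM in Input 1, 2 and 3. The order held within each challenge, but Immunoppt 1 lay under Input 3, and the log2 fold was 0.77 (SE 0.28, adjusted p = 0.133). Without Immunoppt 1 the fold was 1.00 and passed the test (adjusted p = 0.0370). That omission left 443 genes called higher and 1250 lower in the whole table, against 110 and 406 over the 6 libraries. Epha6 and Epha4 had log2 folds of 0.33 (adjusted p = 0.454) and 0.15 (adjusted p = 0.770), Epha10 0.19 and Epha7 -0.10. Ephb2, a receptor of B ephrins at synapses, stood at 1.69, 0.975 and 0.506 RPKM in Immunoppt 1, 2 and 3, against 2.33, 1.67 and 1.41 RPKM in Input 1, 2 and 3, a log2 fold of -0.47 (adjusted p = 0.307). Ephb6, which lacks kinase activity, had 0.37 (adjusted p = 0.344), and Ephb1 had -0.12, which was 0.06 after median scaling. Epha3 and Ephb3 were below the filter, at 0.674 ± 0.294 and 0.621 ± 0.125 RPKM in Immunoppt, against 0.965 ± 0.125 and 0.642 ± 0.145 RPKM in Input (SD, n = 3 each).

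**Figure D3:**
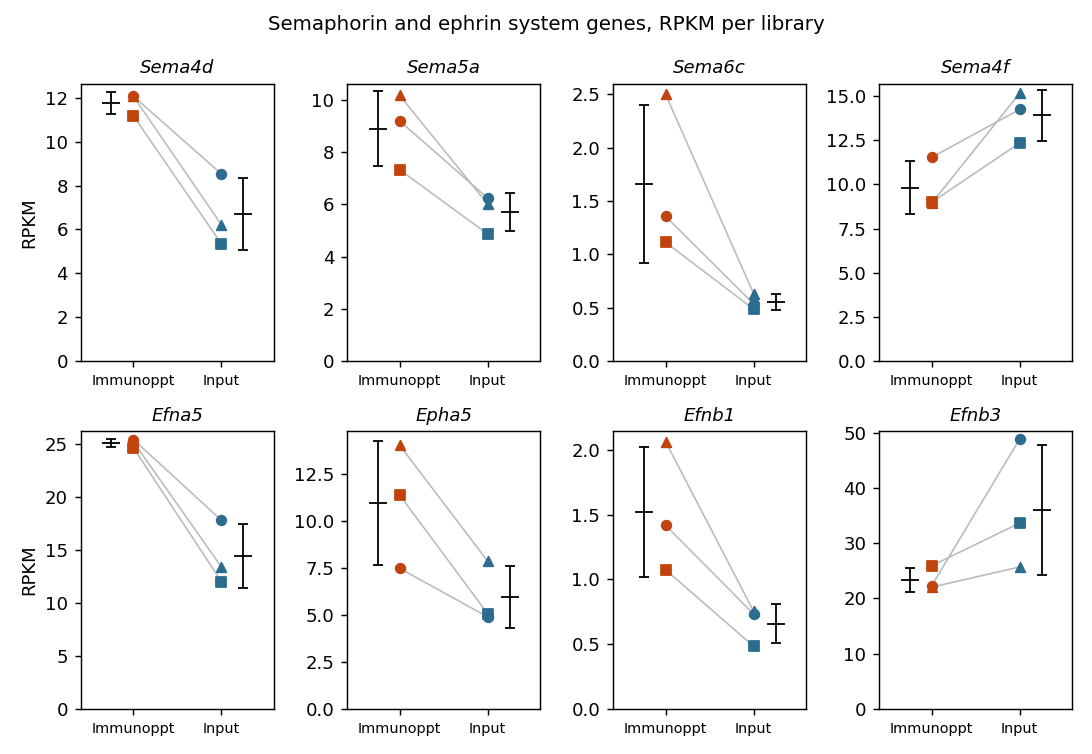
RPKM of 4 semaphorins, 3 ephrins and the receptor Epha5 in each library, with circles, squares and triangles for warm challenges 1, 2 and 3, lines joining a challenge, and black bars for the mean and SD (n = 3). Sema4d and Efna5 lie at 11.2 to 12.1 and 24.6 to 25.4 RPKM in Immunoppt, above 5.34 to 8.53 and 12 to 17.8 RPKM in Input.

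In the netrin system none of 9 genes tested passed. All 4 Unc5 receptors, which mediate repulsion by netrin-1, had negative log2 folds, although Unc5a turned to 0.04 after median scaling and 0.05 after quantile normalization. Negative folds were the more common sign in the whole table, with 8040 of 12328 genes tested. Unc5d stood at 9.70, 4.48 and 4.22 RPKM in Immunoppt 1, 2 and 3, against 12.4, 7.39 and 8.99 RPKM in Input 1, 2 and 3. Each challenge had the lower value in Immunoppt, but Immunoppt 1 lay above 2 of the Input libraries, and the log2 fold was -0.63 (SE 0.32, adjusted p = 0.263). Without Immunoppt 1 the fold was -0.96 and passed the test (adjusted p = 0.0406), as did 1250 genes called lower in the whole table, against 406 over the 6 libraries. Unc5b, also a receptor of blood vessels, stood at 3.55, 2.46 and 2.44 RPKM in Immunoppt 1, 2 and 3, against 5.06, 3.10 and 4.63 RPKM in Input 1, 2 and 3, a log2 fold of -0.46 (adjusted p = 0.282). Unc5c had -0.40 (adjusted p = 0.374) and Unc5a -0.14 (adjusted p = 0.788). Dcc, the attractive netrin receptor, stood at 6.64, 3.22 and 4.29 RPKM in Immunoppt 1, 2 and 3, against 4.90, 3.55 and 5.35 RPKM in Input 1, 2 and 3. Its fold was 0.00 (95% interval -0.61 to 0.61), which does not exclude a change of the size seen for Unc5b.

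Netrin ligands were low. The netrin-G proteins are anchored to axon membranes and bind synaptic adhesion proteins rather than DCC. Over the 6 libraries Ntng1 RNA averaged 8.07 RPKM, against 2.30 RPKM for Ntng2 and 1.92 RPKM for Ntn1. In Input, Ntng2 and Ntn1 each averaged 1.89 RPKM. Ntng1 stood at 3.74, 13.9 and 12.8 RPKM in Immunoppt 1, 2 and 3, against 6.32, 5.76 and 5.95 RPKM in Input 1, 2 and 3. The Input libraries were nearly equal, while Immunoppt 1 lay below all of them and Immunoppt 2 and 3 well above. Over the 6 libraries its log2 fold was 0.50 (95% interval -0.39 to 1.39, adjusted p = 0.479), and without Immunoppt 1 it was 1.03 and passed the test (adjusted p = 0.0182). That omission called 443 genes higher in the whole table, against 110 over the 6 libraries. Ntng2 stood at 2.61, 2.59 and 2.93 RPKM in Immunoppt 1, 2 and 3, against 0.674, 1.96 and 3.04 RPKM in Input 1, 2 and 3, a log2 fold of 0.45 (adjusted p = 0.413) and Input 1 far below the other libraries. Ntn1, netrin-1, averaged 1.94 ± 0.944 RPKM in Immunoppt and 1.89 ± 0.482 RPKM in Input, and Ntn3 0.924 ± 0.143 RPKM in Immunoppt and 1.06 ± 0.255 RPKM in Input (SD, n = 3 each). Ntn4, which is bound to basement membranes, was below the filter at 0.711, 0.761 and 0.435 RPKM in Immunoppt 1, 2 and 3, against 0.935, 0.791 and 1.47 RPKM in Input 1, 2 and 3.

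**Figure D4:**
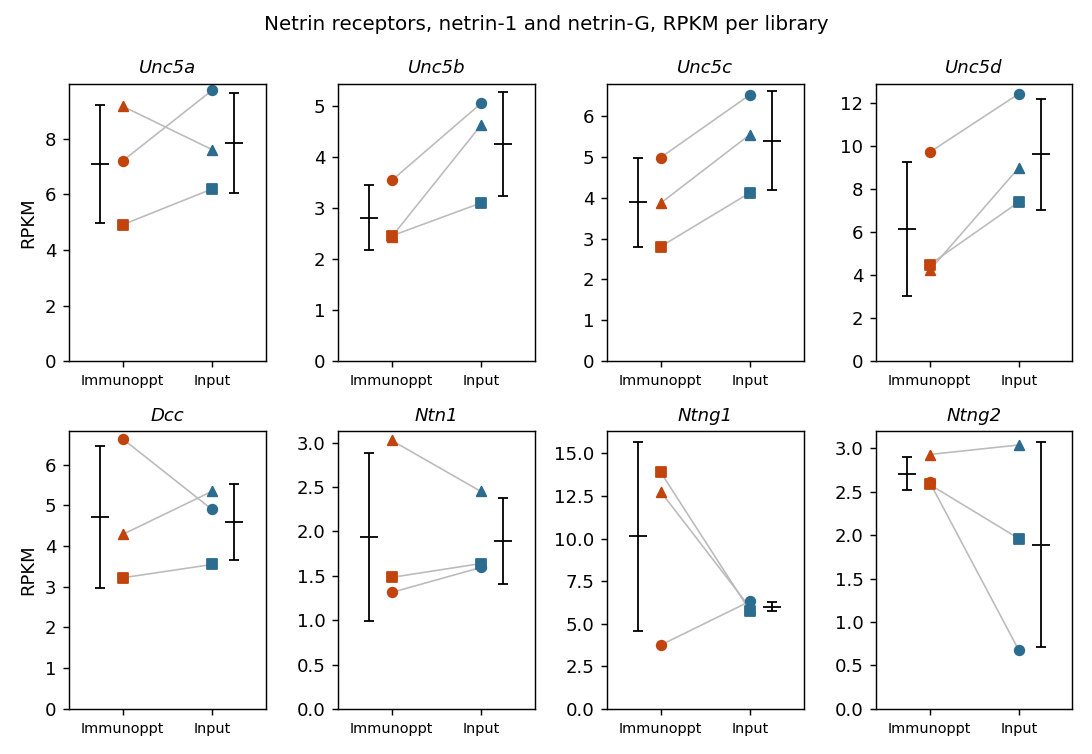
RPKM of the netrin receptors, netrin-1 and the netrin-G genes in each library, with circles, squares and triangles for warm challenges 1, 2 and 3, lines joining a challenge, and black bars for the mean and SD (n = 3). Ntng1 lies at 3.74 RPKM in Immunoppt 1 and at 12.8 to 13.9 RPKM in Immunoppt 2 and 3, against 5.76 to 6.32 RPKM in Input.

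Ordered by mean RPKM over the 6 libraries, the top guidance genes were the ligands Efnb3 (29.8 RPKM), Efna5 (19.7 RPKM) and Sema6d (19.5 RPKM) and the receptor Nrp2 (17.6 RPKM). Efna5 and Sema6d differed by far less than the spread of either between libraries. The order was not that of each fraction: Efna5 (25.1 RPKM) stood above Efnb3 (23.4 RPKM) in Immunoppt, against 14.4 and 36.1 RPKM in Input, and Nrp2 stood above Sema6d in Immunoppt alone. The most abundant receptors after Nrp2 were Plxnc1 (9.93 RPKM), Plxna4 (8.56 RPKM) and Epha5 (8.45 RPKM), which also lay within each other's spread. In Immunoppt Epha5 (10.96 RPKM) came before Plxna4 (10.1 RPKM) and Plxnc1 (9.03 RPKM), while in Input Plxnc1 (10.8 RPKM) was followed by Unc5d (9.60 RPKM) and Unc5a (7.85 RPKM). The medians of these means were 4.71 RPKM for the ligands and 4.42 RPKM for the receptors, and Plxnd1 was lowest at 0.347 RPKM. Of the 59 genes, 14 were highest in Immunoppt 1, 3 in Immunoppt 2 and 19 in Immunoppt 3, against 13 in Input 1, 0 in Input 2 and 10 in Input 3. For all listed genes these shares were 15.0%, 13.7% and 14.9% in the Immunoppt libraries and 19.6%, 12.9% and 23.9% in the Input libraries.

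**Figure D5:**
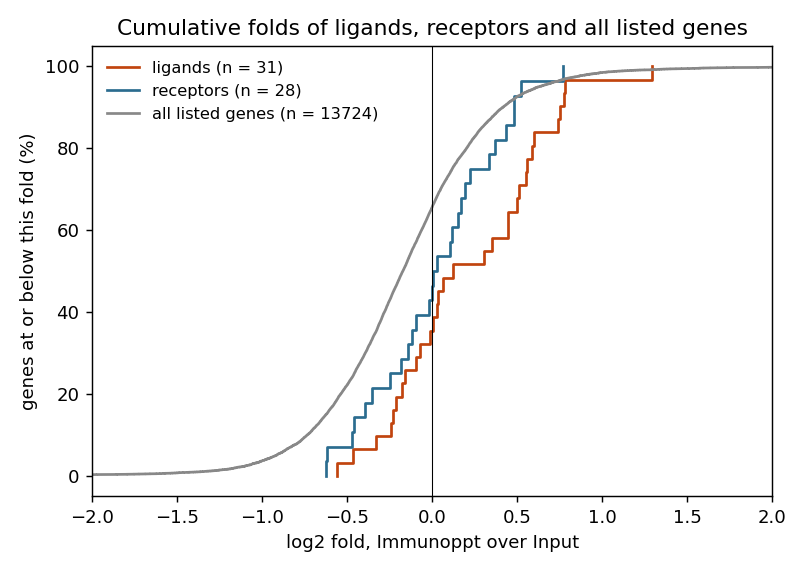
Cumulative share of genes against log2 fold of Immunoppt over Input, from the fit with no filter, for all 31 ligands, 28 receptors and 13724 listed genes, drawn from -2 to 2. The medians lie at 0.12 for ligands, 0.02 for receptors and -0.17 for all listed genes.

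A list of 88 partner genes held co-receptors, proteases, adaptors, kinases, GTPases and their regulators. It was broader than the guidance systems above. Also on it were Wnt and planar polarity genes (Wnt5a, Ryk, Fzd3, Celsr3 and Vangl2) and Nogo system genes (Rtn4, Rtn4r, Lingo1 and Omg). From this list 85 genes were listed and 83 tested. Of these 0 were higher and 1 was lower, beside 0.892% and 3.29% of all genes tested, with a median log2 fold of -0.04 (0.16 after median scaling). Ablim1, an actin-binding protein that acts in netrin signalling, averaged 5.34 ± 0.424 RPKM in Immunoppt and 10.7 ± 0.180 RPKM in Input (SD, n = 3 each). Its log2 fold was -0.89 (SE 0.20, limma adjusted p = 0.0426). It did not pass after median scaling (log2 fold -0.71, adjusted p = 0.0890), and its call held in 1 of the 6 omissions. Arhgef11, which binds B plexins, averaged 33.8 RPKM in Immunoppt and 17.9 RPKM in Input, with a fold of 0.89 on the log2 scale (adjusted p = 0.0635), which passed under the challenge block (adjusted p = 0.0437). The next by p were Fyn, a kinase downstream of several guidance receptors (log2 fold 0.98, adjusted p = 0.0903), and Ablim3, a relative of Ablim1 (log2 fold -0.78, adjusted p = 0.0950).

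Markers of cell types were compared between the fractions as well, and some lists moved while others overlapped. Of 14 oligodendrocyte markers, all listed, 0 were higher and 11 lower, and their summed RPKM was 330 to 368 in Immunoppt and 1074 to 1189 in Input. In bulk RNA, how many cells of a type gave RNA to a library and how much each gave cannot be told apart. Sema4d, Sema6a and Plxnb3, guidance genes known from oligodendrocytes, summed to 25.8 to 28.7 RPKM in Immunoppt and 15.4 to 20.5 RPKM in Input, with 3 positive folds and 0 calls. Of 6 precursor markers 5 were listed (not Cspg4), with Gpr17 higher and Olig1 lower, and sums of 33.8 to 76.9 RPKM in Immunoppt and 88.3 to 91.6 RPKM in Input. Olig1 did not pass limma after median scaling (adjusted p = 0.0627), nor Gpr17 with no filter (adjusted p = 0.0506). The Gpr17 call held in 1 of the 6 omissions and the Olig1 call in 2. Of 10 astrocyte markers, all listed, 0 were called, and 1, Aqp4, was lower under the challenge block (adjusted p = 0.0400). Their folds were negative for 8, of which Aldoc, with most of the sum, turned to 0.09 after median scaling, and the markers summed to 294 to 320 RPKM in Immunoppt and 314 to 428 RPKM in Input. Microglial markers, 8 of 10 listed and 3 tested with 0 calls, summed to 6.77 to 11 RPKM in Immunoppt and 8.73 to 19.4 RPKM in Input, with Tmem119 and Trem2 not listed. Endothelial and mural markers were listed for 3 of 12, with Rgs5 lower and sums of 1.21 to 2.29 RPKM in Immunoppt and 3.61 to 5.90 RPKM in Input, and Cldn5, Cdh5, Flt1, Kdr, Tek and Pdgfrb were among those not listed. Of 7 guidance genes known from vessels, 3 were listed (Efnb2, Plxnd1 and Unc5b), with 0 calls, and their summed RPKM was 9.99 to 16.1 in Immunoppt and 10.6 to 18.2 in Input. Against the label of preoptic neurons, 13 of 14 neuronal genes (not Rbfox3) and 8 of 8 preoptic genes were listed, beside the glial genes above. The neuronal markers had 0 calls, 12 positive folds of 13 and a median log2 fold of 0.52. Snap25 (log2 fold 0.09) made up most of their sum, and they summed to 5110 to 8629 RPKM in Immunoppt and 5090 to 6771 RPKM in Input. Of 6 activity markers 5 were higher, with sums of 247 to 359 RPKM in Immunoppt and 60.3 to 76.4 RPKM in Input, as were Adcyap1 and Bdnf among the 8 preoptic genes. Under the challenge block Arc (adjusted p = 0.0225) and Nts (adjusted p = 0.0467) passed too, which gave 6 activity and 3 preoptic genes. The part of any of these in the guidance genes' values was not tested. Unc50 had a log2 fold of -0.27 (adjusted p = 0.488).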

How the data were processed

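PhosphoTRAP RNA-seq of 3 Immunoppt and 3 Input libraries from warm-exposed wild type mice was analysed. The authors deposited RPKM values in 1 table, whose 6 columns each hold 1 library, per the file headers. Per the submitters' processing notes the genome build was mm9. Aligner, counter and gene models were not given in the sources used here. An Ovation kit amplified the cDNA, per the labels' protocols. The smallest value is 0.101 RPKM, so genes that fall to 0.1 RPKM or less in even 1 library are missing from every count. RPKM holds no read counts, so no interval for counting error is given, and low values carry more of it.

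Values were analysed as log2(RPKM + 1) where 3 or more libraries reached 1 RPKM. Fractions were compared with limma 3.58.1 (R 4.3.3, mean-variance trend, two-sided, no block) over the whole table, with Benjamini-Hochberg adjustment over 12328 genes and a threshold of 0.05. On simulated data with 3 libraries a group and 200 genes changed, 20% of log2 changes of 1 and 76% of log2 changes of 2 were recovered. Each simulated library was drawn independently, gene by gene. The simulation thus held no pairing by challenge and no library set apart as Immunoppt 1 was, and recovery in the real data may differ. Python 3.11.15 served for counts and plots. Promoter windows came from RefSeq (GRCm38.p6), whose coordinates are not those of the deposited table.

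The labels number each library by its warm challenge, and the fractions were taken as paired on that ground. Deviations from group means correlated by 0.05, 0.61 and 0.27 across genes within challenges 1, 2 and 3. Between challenges they ran from -0.52 to 0.18, and Immunoppt 1 correlated more with Input 3 (0.18) than with Input 1. A blocked fit gave 164 genes higher and 492 lower, against 110 and 406 without the block. Each SE, interval and p-value given for a gene is from the fit without the block, unless the block is named. The alternatives were other pseudocounts (0.1 and 5), filters (none and 5 RPKM), scalings, no trend, the block and leaving out each library.

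Members, lists and tests were chosen with earlier results of these data known. The rule for naming took members past the threshold with or without the block, and in each family the 2 with the largest absolute fold and the 2 with the highest mean. All other members are given too. From the partner list it took the 4 with the smallest p. The counts of genes with fractions fully apart and their alternatives were added after seeing the data.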

Additional observations from a re-analysis of the deposited data

How the results depend on the processing

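Slit2 kept its direction and its call under all 9 alternatives that used the 6 libraries, and its direction in all 6 omissions. Under the filter of 5 RPKM Slit2 entered the test through the 3 Immunoppt libraries alone, the fraction in which it was high. Over the 34 guidance genes named by rule and those 9 alternatives (the filter of 5 RPKM kept 19 of the 34), 281 folds kept direction and side of the threshold and 10 turned sign. After median scaling, with or without the replicate block, Ephb1 (0.058), Sema6d (0.13) and Unc5a (0.039) turned. After quantile normalization Ephb1 (0.10), Sema3c (0.050), Sema6d (0.060) and Unc5a (0.049) turned. No guidance gene gained or lost a call with the block (1 higher, 0 lower).

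Over the omissions the fold ranged from -0.13 to 0.298 for Efna3, -0.22 to 0.290 for Efnb2, -0.019 to 0.374 for Epha4, -0.17 to 0.275 for Nrp1, -0.034 to 0.378 for Robo2, -0.11 to 0.306 for Sema3a, -0.22 to 0.098 for Sema6d and -0.326 to 0.066 for Unc5a. Guidance genes called were 0 to 3 higher and 0 to 1 lower, and all genes 4 to 443 higher and 17 to 1250 lower, with the high end without Immunoppt 1. Ligands apart upwards were 8 to 13 and downwards 2 to 5, and receptors 0 to 6 and 0 to 8, while 7.99% to 13.9% of all listed genes lay above and 27.4% to 34.9% below. The class medians ranged from 0.10 to 0.41 for ligands and -0.077 to 0.20 for receptors.

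All genes called lower were 125 after median scaling, 124 after quantile normalization and 144 with block and median scaling, which called 187 higher. The ligand median was 0.47, 0.46 and 0.47 under those, 0.12 with no filter and 0.14 with a pseudocount of 5, and the receptor median 0.36 after quantile normalization. The median of all genes was -0.000729 with median scaling, with or without block, -0.013 after quantile normalization, -0.15 with a filter of 5 RPKM, and -0.21 and -0.11 with pseudocounts of 0.1 and 5. After median scaling 0 ligands lay apart downwards and 3 receptors upwards. The cause of these moves was not tested, beyond that scaling shifts every fold and omissions leave fewer libraries.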
